A study of Mus musculus with 23 samples.

Results

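Primary mouse myoblasts that had been grown to passages 8 to 10 were compared with primary myoblasts at passage 0. Both groups held 3 cultures (n = 3 arrays each), so the comparison used 6 of the 23 arrays of the series. Samples were assigned by the source label, which names either passage 0 or proliferation. All 6 cultures were labelled as C57BL/6J and male, and all were muscle precursor cells kept in Ham's F-10 medium with bovine serum and basic fibroblast growth factor on collagen-coated dishes. No allele, transgene or drug treatment is named for either group. The other arrays held embryonic stem cells, myotubes after 1, 2 or 4 days in differentiation medium, and muscle. Total RNA was measured on Agilent 1-colour arrays with 55681 probes for 36091 gene names. A level is given as log2 of the processed intensity minus the 75th percentile of its array, so a level of 0 equals that percentile, and differences are expanded minus passage 0.

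Myoblasts are the dividing offspring of satellite cells, the stem cells that sit on muscle fibres. They carry the factors Pax7 and Myod1, and on withdrawal of serum they switch on Myog, leave the cell cycle and fuse. A culture freshly plated from muscle can also hold macrophages, fibroblasts, pericytes, endothelial cells and fat precursors, and long growth on collagen in the presence of fibroblast growth factor is a common way of enriching myoblasts.

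The array of expanded replicate 1 was dim, with a 75th percentile of 87.67 intensity units against 494.4 to 764.8 on the other 5, and 41.24% of its spots were well above background against 51.94% to 58.64%. Its correlation with the other arrays across genes was 0.867 to 0.900, while the other 5 arrays correlated with each other at 0.944 to 0.981. The median standard deviation of a gene was 0.27 log2 units over the passage 0 arrays, 0.67 over the 3 expanded arrays and 0.38 over the 2 expanded arrays without replicate 1. Culture numbers in the sample titles were 26, 30 and 42 at passage 0 and 21, 26 and 28 after expansion, so only number 26 occurs in both groups, and passage and culture otherwise cannot be told apart. The labels do not say whether the shared number marks the same animal. No label says whether the cultures of a group came from separate animals, so p-values measure the spread between these arrays only.

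The sex-linked genes went against the male label on 3 of the 6 arrays. Xist, the RNA that coats the inactive X chromosome in female cells, stood at 1.82, -2.71 and 1.41 in passage 0 cultures 26, 30 and 42, and at -4.03, 1.20 and -6.96 in expanded cultures 21, 26 and 28. Eif2s3y, a Y-linked translation factor gene, was lowest on the 3 arrays with the highest Xist, at -7.03, 1.83 and -7.20 and then at -0.20, -6.58 and 2.12. In passage 0 culture 30, Xist at -2.71 also stood over the lowest well-measured signal of its array, -4.795, beside high Eif2s3y. The reason was not tested. Ddx3y, a Y-linked helicase gene, followed Eif2s3y at -6.86, 1.68 and -7.05 and then at -1.18, -6.40 and 1.38. Passage 0 cultures 26 and 42 and expanded culture 26 thus had high Xist with both Y genes at background level, in 2 passage 0 arrays but in 1 expanded array. Of the 104 genes described as called below, 2 lie on X and 0 on Y, and their part in the result beyond that was not tested.

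The labelled cell type was borne out by its markers on all 6 arrays. Myod1, Pax7, Cdh15, Des and Itga7 were well above background on every array. Myod1, the factor that commits cells to muscle, stood at 5.77, 5.78 and 5.64 at passage 0 and at 6.31, 6.38 and 5.93 after expansion (adjusted p = 0.55 in the limma fit of the 6 arrays). Pax7, the satellite cell factor, stood at 2.98, 2.99 and 2.63 and then at 1.61, 3.87 and 2.67, so its groups overlapped (adjusted p = 0.90).

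With all 6 arrays, no gene passed the test. Of 20365 genes tested with limma, 0 were called at an adjusted p under 0.05 with at least a 2-fold difference (0% called), although 1907 had an unadjusted p under 0.05, 922 of them higher and 985 lower in expanded cells. The lowest adjusted p was 0.12, shared by 8 genes. The median difference of all genes tested was 0.14 log2 units.

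This count depended on the dim array and on how the spread was estimated. Without expanded replicate 1, 70 genes were higher (0.333% of 21015 tested) and 182 were lower (0.866%) by the same test and threshold, although this fit leaves 2 expanded arrays. With all 6 arrays kept but the spread of each gene estimated over 7 groups with 21 samples, 137 were higher (0.673% of 20365) and 210 lower (1.03%). In that fit the technical replicate array of 1 embryonic stem cell line was averaged with its partner array. Weighting arrays by their quality gave 69 higher (0.339%) and 209 lower (1.03%). The 7-group spread comes partly from groups with closer replicates, so its p-values may be too small for the expanded group, whose own spread was larger. The same 104 genes passed in both, 20 of them higher (0.0982%) and 84 lower (0.412%), and those are the genes called here. Both tests use the same passage 0 arrays and 2 shared expanded arrays, so a pass in both is not independent support. Among the 104 genes, 103 had no overlap between the 3 passage 0 and 3 expanded arrays, and 104 kept their direction within each of the 3 slides and within culture number 26. The choice of genes with large differences on these arrays largely fixes both counts, so they support nothing. Of all 20365 genes tested, 1980 were lower and 2125 higher without overlap. The share of a gene list that was called is to be read against those 0.0982% and 0.412%, and 0 calls in a short list is near that background. Adjusted p-values below are given first without expanded replicate 1 and then with the 7-group spread.

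Macrophage genes had the lowest median of the gene lists. Of 25 macrophage and monocyte markers on the array, 21 could be tested, 6 fell in both tests and 0 rose, against 84 and 20 of all 20365. The 6 were Ctss, Lyz1, Lyz2, Tyrobp, Trem2 and C1qa. The list's median difference was -2.47 with 6 arrays and -2.93 without expanded replicate 1, beside 0.14 and 0.09 for all genes tested. With genes that no expanded array measured set to their lower bound, the 6-array median was -2.20.

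Promoters of 3 of these genes are shown because they are the ones that hold, among the 4 of the 6 genes with a promoter window here (Ctss, Lyz1, Lyz2 and Trem2), the ETS core AGGAAGT, the kind of sequence that the myeloid factor PU.1 and its relatives bind. The sequences are from RefSeq (build GRCm38.p6), run from 250 bases before to 50 after the gene start, and have the match in capitals, here on the opposite strand.
Ctss: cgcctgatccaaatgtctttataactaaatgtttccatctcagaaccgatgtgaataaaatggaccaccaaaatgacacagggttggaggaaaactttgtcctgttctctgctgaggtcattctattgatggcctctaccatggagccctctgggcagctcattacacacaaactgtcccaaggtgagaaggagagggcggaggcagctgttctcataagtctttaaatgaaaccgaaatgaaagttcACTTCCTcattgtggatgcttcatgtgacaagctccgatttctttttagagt
Lyz2: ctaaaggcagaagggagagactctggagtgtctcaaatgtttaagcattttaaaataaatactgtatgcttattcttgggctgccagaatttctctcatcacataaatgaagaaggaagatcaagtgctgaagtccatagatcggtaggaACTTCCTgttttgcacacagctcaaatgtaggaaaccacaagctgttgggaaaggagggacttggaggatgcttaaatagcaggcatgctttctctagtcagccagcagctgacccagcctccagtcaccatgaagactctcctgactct
Lyz1: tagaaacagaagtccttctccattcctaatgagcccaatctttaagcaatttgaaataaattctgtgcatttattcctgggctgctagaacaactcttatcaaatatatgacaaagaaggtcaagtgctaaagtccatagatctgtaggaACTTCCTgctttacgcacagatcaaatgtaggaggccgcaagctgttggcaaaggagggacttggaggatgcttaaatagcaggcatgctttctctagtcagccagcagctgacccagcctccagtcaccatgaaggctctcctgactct
The windows lie at chr3:95526536-95526835 on the plus strand, chr10:117282223-117282522 and chr10:117292819-117293118 on the minus strand. Searched on both strands, AGGAAGT occurred in 9.35% of 32851 promoter windows of 300 bases, in 8 of the 62 lower genes with a window and in 3 of the 4 leukocyte genes with one. The percentage counts windows, while a gene was counted if any of its windows matched. The 32851 windows belong to 27025 gene names, so the shares are not in like units. The Lyz1 and Lyz2 windows were identical at 201 of 300 bases (67%) and hold the match at the same place, so their matches are not separate cases. A match is a description of the letters only.

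Ctss encodes cathepsin S, a protease of antigen-presenting cells. Its level was 3.71, 1.55 and -0.82 in passage 0 replicates 1 to 3 and -3.85, -6.28 and -6.76 in the expanded replicates. The groups did not overlap, passage 0 replicate 1 was the highest of its group, and no expanded array was above background, so the fall was at least 36.2-fold with 6 arrays and at least 68-fold without expanded replicate 1 (adjusted p = 0.033 and 0.00037). The bound sets the passage 0 mean against the lowest reliably measured signal of each expanded array.

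Lyz2 encodes the lysozyme of macrophages. It read 2.73, 1.72 and -1.13 at passage 0 and -3.97, -6.53 and -6.90 after expansion, a fall of at least 27.9-fold, or 52.4-fold without expanded replicate 1 (adjusted p = 0.027 and 0.00035). Its neighbour Lyz1 read 4.97, 0.95 and 0.71 and then -1.45, -6.30 and -6.87 (adjusted p = 0.030 and 0.0053), and only expanded replicate 1 was above background. The Lyz1 and Lyz2 probes lie on chromosome 10 of build mm9 at 116724862 to 116724921 and at 116719175 to 116719234, and whether the probes of these paralogs share signal was not tested.

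Tyrobp, a signalling adaptor of myeloid cells, was at 3.22, 1.95 and -0.91 and then at -1.83, -6.56 and -5.98. Trem2, its receptor partner, was at 2.69, 1.10 and -1.30 and then at -2.51, -6.39 and -6.74. C1qa, a complement subunit made by macrophages, was at -0.02, -0.90 and -3.08 and then at -3.76, -6.03 and -6.99. Each of the 3 was above background on all passage 0 arrays and on no expanded array, and in each the order at passage 0 was replicate 1, replicate 2, replicate 3.

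Clec4d, a lectin receptor gene of myeloid cells that is on no list, also fell in both tests. It read 2.14, 0.72 and -1.47 and then -4.06, -6.55 and -6.62, at least 17.8-fold lower, or 33.5-fold without expanded replicate 1 (adjusted p = 0.028 and 0.00037). Il1rl1, the receptor of interleukin 33, read -0.49, 3.26 and 2.42 and then -3.82, -6.42 and -6.19, at least 43-fold lower, or 80.7-fold without expanded replicate 1 (adjusted p = 0.024 and 0.00019). Culture 26 was its lowest at passage 0, whereas it was the highest for all 6 macrophage genes above. Tnfrsf11b, the decoy receptor osteoprotegerin, was at least 8.03-fold lower, or 14.9-fold without that array, at -1.94, 0.25 and -0.25 and then -4.05, -4.27 and -5.25 (adjusted p = 0.046 and 0.011). The chemokine gene Ccl9 read -0.42, -0.52 and -1.47 at passage 0 and -3.52, -5.99 and -6.08 after expansion (adjusted p = 0.0095 and 0.00099). It was above background on no expanded array, a fall of at least 7.42-fold, or 13.9-fold without expanded replicate 1. Of 21 tested chemokines and receptors it was the 1 that fell in both tests, beside 84 of all 20365 genes.

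Other members of the macrophage list did not pass both tests. Ptprc, the pan-leukocyte antigen CD45, was near the limit at -2.81, -4.19 and -4.92 at passage 0 and above background on no expanded array. Adgre1, a macrophage surface antigen, read -1.46, -2.79 and -3.90 and then -2.12, -4.11 and -4.49, and the groups overlapped, as they did for Cd68, a lysosomal marker of macrophages. Csf1r and Itgam were well above background on all 6 arrays, Itgam at 4.10, 3.86 and 4.48 and then at 5.91, 4.27 and 5.58. The number of list members above background was 21 to 23 at passage 0 and 8 to 10 after expansion, and their summed signal in units of the 75th percentile was 32.4 to 130 and 24.8 to 90.5, sums that hold the bright Itgam probe. Cd163 and Ccr2 were above background on none of the 6 arrays.

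The shift of the macrophage list differed between slides. Each slide held 1 array of each group, and the list median was 0.13 within slide 1, where dim expanded replicate 1 meets passage 0 replicate 3, but -4.66 and -3.79 within slides 2 and 3. Within culture number 26 it was -4.65. Lyz1 differed there by -11.27, but its expanded signal of -6.30 was not above background, so the size of that fall was not measured. The medians within slides and within culture number 26 use such signals as they stand, without bounds. Ctss, Lyz2 and Tyrobp were above background on 0 of 3 arrays at each myotube stage and on 3 of 3 quadriceps arrays, where Ctss read 0.09 to 0.62. In bulk RNA, fewer cells of a type and less RNA per cell cannot be told apart.

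**Figure D1:**
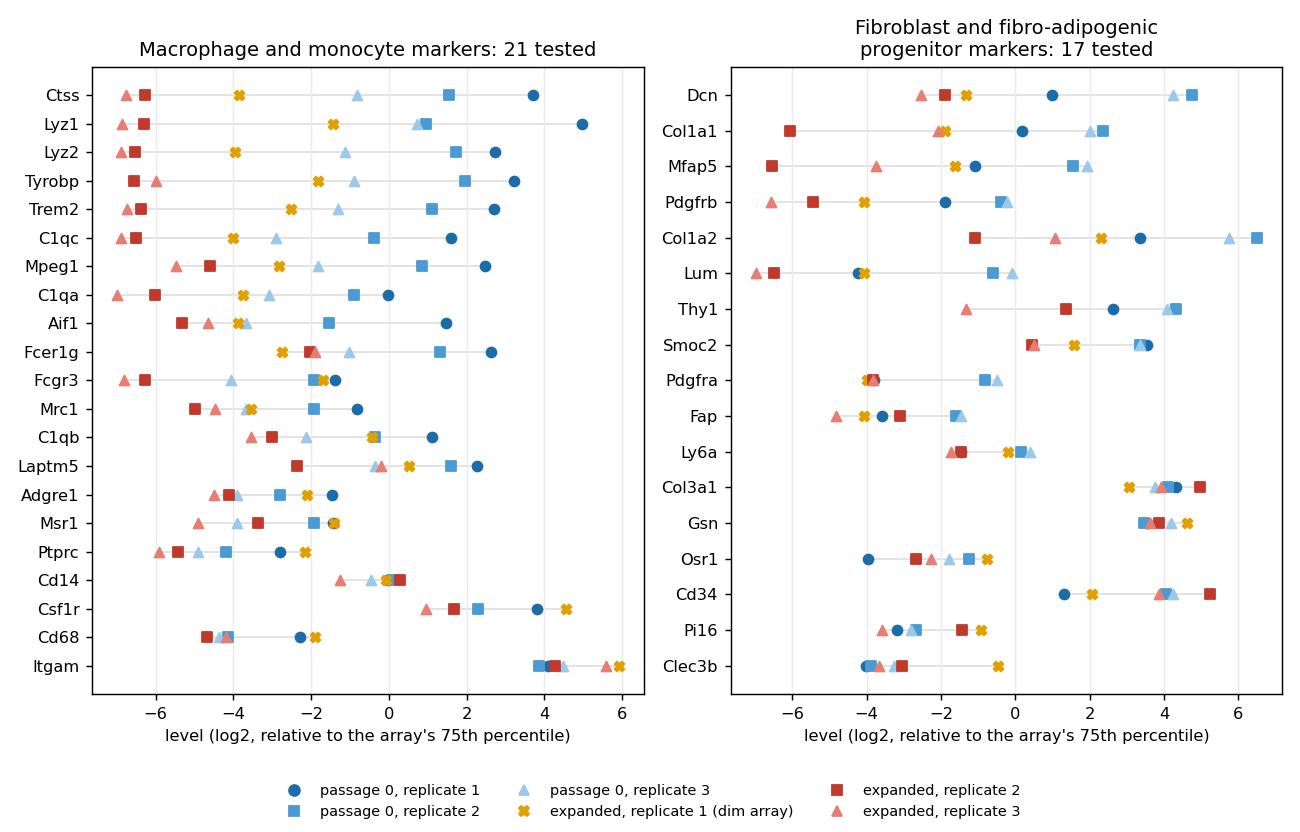
Levels of the tested macrophage and monocyte markers (left) and fibroblast markers (right), with 1 point per array on the log2 axis relative to each array's 75th percentile and genes ordered by their difference. For Ctss and Lyz2 all passage 0 points lie right of all expanded points, passage 0 replicate 1 is highest for most macrophage genes and lowest for most of the upper fibroblast genes, and Itgam and Col3a1 overlap.

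Fibroblast markers had the next lowest median, and passage 0 culture 26, the highest for most macrophage genes, was the lowest for most of them. Of 20 markers, 17 were tested, and 1 fell in both tests, beside 84 of all 20365 genes. That gene was Pdgfrb, the receptor of mural cells and fibroblasts. It read -1.88, -0.39 and -0.22 at passage 0 and -4.07, -5.45 and -6.58 after expansion, a fall of at least 7.28-fold, or 13.7-fold without expanded replicate 1 (adjusted p = 0.018 and 0.0023). Without expanded replicate 1, 2 of the 17 fell, beside 182 of all 21015 genes. With the 7-group spread 7 fell, beside 210 of all 20365. The median difference was -2.18 with 6 arrays and -2.13 without expanded replicate 1.

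Dcn, which encodes the matrix proteoglycan decorin, read 0.99, 4.74 and 4.25 and then -1.34, -1.90 and -2.53. The groups did not overlap, and the difference was -5.25 ± 0.95 (SE), but the adjusted p was 0.069 without expanded replicate 1 and 0.00057 with the 7-group spread. Col1a1, a chain of type I collagen, read 0.19, 2.37 and 2.00 and then -1.89, -6.05 and -2.08 (adjusted p = 0.089 and 0.019). It was above background on only 1 expanded array. Col1a2, its partner chain, read 3.34, 6.51 and 5.76 and then 2.30, -1.09 and 1.07 (adjusted p = 0.072 and 0.026).

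Other members split or overlapped. Smoc2, a matrix protein gene, read 3.55, 3.35 and 3.34 and then 1.57, 0.44 and 0.50 (adjusted p = 0.012 and 0.21). Pdgfra, the defining marker of fibro-adipogenic progenitors, read -3.80, -0.82 and -0.49 and then -3.98, -3.83 and -3.83 (adjusted p = 0.40 and 0.090), so passage 0 culture 26 stood with the expanded cultures. Col3a1, a chain of type III collagen, overlapped at 4.33, 4.11 and 3.75 against 3.05, 4.97 and 3.91 (adjusted p = 0.80 and 0.94). Of the fibroblast list, 17 members were above background on each passage 0 array and 13 to 14 on the expanded arrays, with summed signals of 67.1 to 205 and 47.1 to 89.5. Within slides 1, 2 and 3 the list median was -2.61, -1.24 and -2.91, but within culture number 26 it was -0.03.

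Of 40 tested genes of the transforming growth factor beta, BMP and myostatin list, Tgfbi and Inhba fell in both tests, and 0 rose. The list's median was -0.51, with 31 of 40 below 0, beside 8620 of all 20365 below 0 and 84 called lower. Tgfbi, a secreted matrix protein named for its induction by the growth factor, read 2.19, 2.49 and 2.34 and then -2.49, -3.84 and -2.01, 34.8-fold lower (difference -5.12 ± 0.50 SE, adjusted p = 0.014 and 0.00052). The groups did not overlap, and of the 6 arrays only expanded replicate 1 was not above background.

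Inhba, the subunit of activin A, read 2.51, 4.74 and 4.39 and then -0.33, -1.78 and -1.07, 30.7-fold lower (adjusted p = 0.024 and 0.042). It was above background on all 6 arrays and did not overlap, as the rule that named it required. The ligand gene Tgfb2 read 3.40, 4.47 and 3.97 and then -0.15, 2.05 and 0.53, a difference that passed the 7-group test alone (adjusted p = 0.076 and 0.0062). Ccn2, which encodes connective tissue growth factor, passed the test without expanded replicate 1 alone. It read 4.00, 4.90 and 5.12 and then 2.74, -0.14 and 1.30 (adjusted p = 0.026 and 0.10). Expanded replicate 1 was the highest expanded array.

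Vasn encodes vasorin, a membrane protein that binds the same growth factor. It read 2.61, 2.50 and 2.60 and then -0.37, -1.06 and -1.39, 11.4-fold lower (adjusted p = 0.0095 and 0.00054), and both of its probes agreed in direction. Emilin2, an elastic matrix protein gene, read 1.71, 3.39 and 2.65 and then -1.33, -1.37 and -1.75, 16.8-fold lower (adjusted p = 0.020 and 0.00052). Itgb3, the integrin beta 3 subunit, read 0.97, 2.35 and 2.01 and then -1.20, -1.74 and -3.38 (adjusted p = 0.030 and 0.0050).

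Col5a3, a minor fibrillar collagen gene, read -0.38, 0.13 and -0.24 and then -3.87, -3.01 and -3.15 (adjusted p = 0.014 and 0.011). Only 2 expanded arrays were above background for Col5a3. It was the 1 of 21 tested collagens to fall in both tests, beside 84 of all 20365 genes. The collagens had a median difference of -0.32. Cspg4, the NG2 proteoglycan of pericytes, read 2.27, 2.48 and 1.98 and then -0.30, -0.98 and -1.68, 9.37-fold lower (adjusted p = 0.013 and 0.0053). Of 9 tested smooth muscle and pericyte markers it was the 1 that fell in both, beside the same 84 of 20365. Acta2, smooth muscle actin, overlapped at 7.53, 8.37 and 7.74 against 7.75, 8.09 and 6.78, and Myh11 was above background on no array.

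Ngfr, a neurotrophin receptor gene that Schwann cells and some stromal cells carry, read 1.63, 3.53 and 3.07 and then -0.55, -0.67 and -1.42 (adjusted p = 0.038 and 0.042). The Schwann cell marker Sox10 overlapped, at -3.71, -3.53 and -2.86 and then -1.80, -3.47 and -3.22. Serpinb2, the inhibitor PAI-2, read 0.44, 1.69 and 1.88 and then -1.44, -2.50 and -2.79 (adjusted p = 0.020 and 0.015). Aqp5, a water channel gene, read 3.65, 3.77 and 3.67 and then 1.25, -0.19 and 1.06 (adjusted p = 0.023 and 0.014). All 3 genes were above background on every array and did not overlap, as the rule that named them required.

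Prr9, a proline-rich protein gene, and Pcp4l1, a gene related to a calmodulin-binding peptide, complete the 12 lower genes with the largest differences among those measured on all arrays. Prr9 read 2.55, 1.80 and 2.38 and then -0.81, -0.89 and -1.29, 9.45-fold lower (adjusted p = 0.014 and 0.0026). Pcp4l1 read 2.06, 2.00 and 2.17 and then 0.11, -2.09 and -0.85, 8.11-fold lower (adjusted p = 0.018 and 0.0011), and its passage 0 values were the closest together of the pair.

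**Figure D2:**
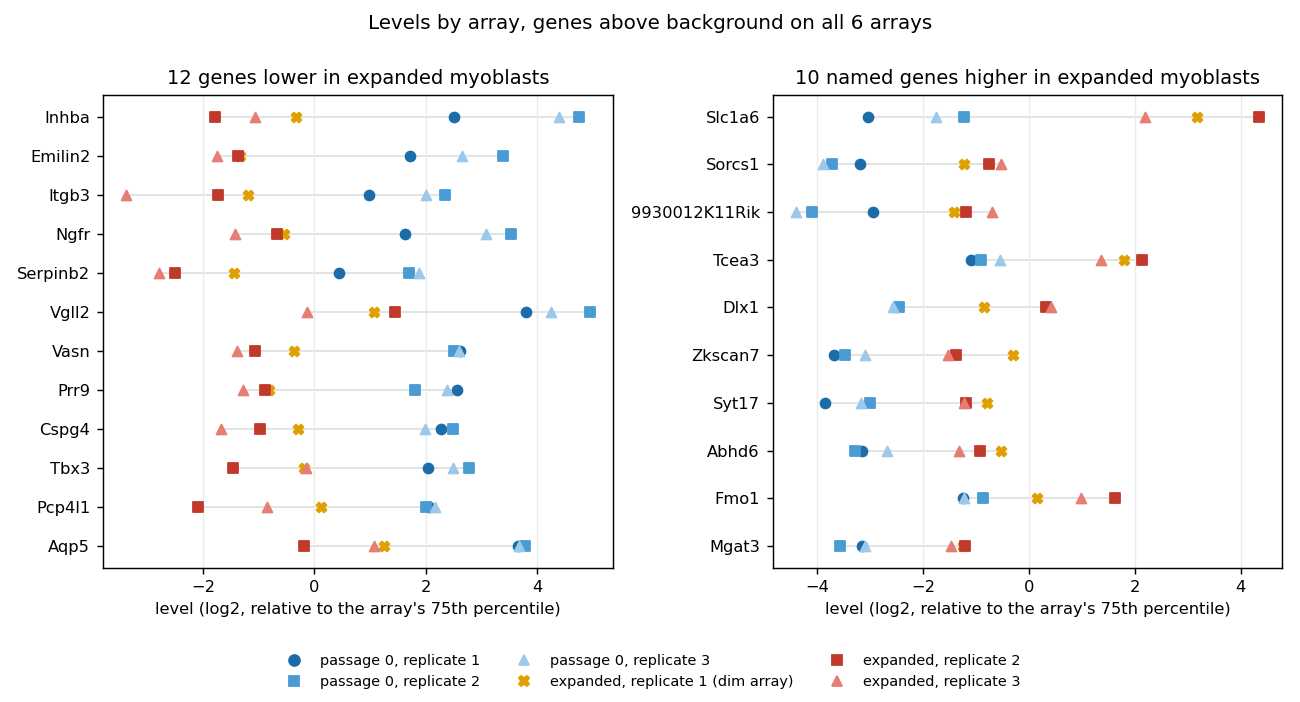
Levels of 12 lower and 10 higher genes on each of the 6 arrays, on a log2 axis relative to each array's 75th percentile, for called genes above background on all arrays with the largest differences. Genes were chosen only where the groups do not overlap, so the choice fixes that dim expanded replicate 1 lies on the expanded side. Of the expanded arrays, it is nearest to passage 0 for most of the lower genes.

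Transcription factors of limb and trunk patterning fell in 3 of 35 tested cases, Tbx2, Tbx3 and Pitx1, and rose in 0, beside 84 lower and 20 higher of all 20365. Tbx3 and its relative Tbx2 are T-box repressors also known for holding back senescence. Tbx3 read 2.04, 2.78 and 2.48 and then -0.18, -1.47 and -0.16 (adjusted p = 0.030 and 0.015). Tbx2 read 0.35, 0.56 and 0.73 and then -1.88, -3.46 and -2.95 (adjusted p = 0.0095 and 0.0041), with only 2 expanded arrays above background. Pitx1, a hindlimb factor, read -3.59, -0.77 and -1.11 at passage 0 and was above background on no expanded array, a fall of at least 3.65-fold, or 6.86-fold without expanded replicate 1 (adjusted p = 0.044 and 0.0071). The list's median was -0.70 with 6 arrays and -0.39 without expanded replicate 1, and the 27 tested Hox genes had a median of 0.02 with 0 called.

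Vgll2, a muscle cofactor of TEAD proteins, read 3.79, 4.94 and 4.24 and then 1.07, 1.45 and -0.14, 11.5-fold lower (adjusted p = 0.037 and 0.011). Zic1, a zinc finger factor of trunk somites chosen after its values were seen, read 1.56, 1.85 and 1.63 and then -0.78, -0.18 and 0.06 (adjusted p = 0.041 and 0.0088), but its other tested probe went the opposite way. Hey1, a target of Notch signalling that keeps satellite cells quiescent, read 1.87, 0.86 and 1.10 and then -1.66, -2.03 and -1.09 (adjusted p = 0.038 and 0.00057). Only 2 expanded arrays were above background for Hey1. It was the 1 of 16 tested Notch pathway genes to fall in both tests, beside 84 of all 20365 genes. The Notch list had a median of -0.38. Pparg, the fat cell regulator, read 1.14, 1.31 and 1.27 and then 0.08, -1.05 and -0.60. Fabp4, a fatty acid carrier of fat and endothelial cells, read -0.29, -0.76 and -0.27 and then -2.42, -6.12 and -5.07. It was above background on no expanded array, a fall of at least 9.54-fold, or 17.9-fold without expanded replicate 1. Pparg and Fabp4 both passed (adjusted p = 0.030 and 0.013 for Pparg, 0.0095 and 0.0053 for Fabp4). Adipoq, the defining fat cell gene, was above background on no array.

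Of 24 tested cholesterol synthesis genes, 18 were below 0 with 6 arrays, beside 8620 of all 20365, and the median was -0.59. Hmgcs1 and Idi1, enzymes of the pathway, passed the 7-group test alone (adjusted p = 0.042 and 0.011). The list stayed below the median of all genes within each slide, at -0.64, -0.85 and -0.56.

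Fewer genes were higher in expanded cells, and 0 of the 20 are on any of the 53 lists. The lists name 1274 genes, beside 20365 genes tested, so 0 of 20 is near that share. Of the 84 lower genes, 61 are on no list. Slc1a6, a glutamate transporter known from cerebellar neurons, had the largest difference among them. It read -3.03, -1.22 and -1.75 at passage 0 and 3.17, 4.35 and 2.19 after expansion, 37.7-fold higher (difference 5.24 ± 0.67 SE, adjusted p = 0.032 and 0.00019). All 6 arrays were above background and the groups did not overlap, as the rule that named it required. Culture number 26 differed by 7.38 in Slc1a6. In myotubes the levels were lower, with a median of 0.25 on day 1 and of -2.28 on day 2 (3 arrays each, not tested). Its promoter is shown with an E-box CAGCTG, the form of the element that Myod1 and Myog bind, in capitals (RefSeq, build GRCm38.p6, chr10:78780246-78780545, plus strand).
Slc1a6: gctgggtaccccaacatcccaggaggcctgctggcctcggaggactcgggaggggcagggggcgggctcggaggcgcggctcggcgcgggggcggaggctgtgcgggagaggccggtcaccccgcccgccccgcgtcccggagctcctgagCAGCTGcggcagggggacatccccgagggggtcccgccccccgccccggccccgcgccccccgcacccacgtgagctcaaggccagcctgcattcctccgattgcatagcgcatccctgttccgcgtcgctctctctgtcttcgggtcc
The palindromic CAGCTG occurred in 16.3% of all 32851 promoter windows, in 3 of the 9 higher genes with a window and in 17 of the 62 lower ones. Here too the percentage counts windows, while a gene was counted if any of its windows matched. CAGCTG is also present, in lower case, in the Ctss, Lyz1 and Lyz2 windows above, where it overlaps no AGGAAGT match.

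Sorcs1, a sorting receptor gene, read -3.19, -3.71 and -3.88 and then -1.22, -0.75 and -0.53, 6.77-fold higher (adjusted p = 0.017 and 0.00019). Tcea3, a muscle-enriched transcription elongation factor gene, read -1.10, -0.90 and -0.54 and then 1.79, 2.14 and 1.37, 6.12-fold higher (adjusted p = 0.029 and 0.00061). Dlx1, a homeobox factor gene of the forebrain, read -2.51, -2.46 and -2.56 and then -0.84, 0.32 and 0.41 (adjusted p = 0.012 and 0.0055). Fmo1, a flavin monooxygenase gene, read -1.25, -0.87 and -1.23 and then 0.15, 1.63 and 0.99 (adjusted p = 0.027 and 0.015). In each of these 4 the lowest expanded array stood above the highest passage 0 array, as the rule that named them required.

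Cdk18 and Gata4 were picked after their values were seen, as the called higher genes with the highest level and with a known role in heart development. Cdk18, a kinase related to the cell cycle kinases, read 2.70, 2.91 and 2.55 and then 4.20, 4.70 and 4.63 (adjusted p = 0.030 and 0.0020). Gata4 read -3.93, -3.85 and -3.37 and then -1.76, 1.14 and -0.62 (adjusted p = 0.028 and 0.027). The remaining named genes of this direction, Zkscan7, Syt17, Abhd6, Mgat3 and 9930012K11Rik, were between 3.88-fold and 6.59-fold higher, and none exceeded a level of -0.29 on any array.

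Long noncoding transcripts that the array names by position were also among the 20, and 3 of them were taken by the rule for named genes. Their probes are shown because the sequence is their identity, as given in the array files on the minus strand of build mm9, at chr4:116796126-116796185, chr5:113626564-113626623 and chr11:119797663-119797722.
Chromosome 4 transcript: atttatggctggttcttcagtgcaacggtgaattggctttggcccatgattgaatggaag
Chromosome 5 transcript: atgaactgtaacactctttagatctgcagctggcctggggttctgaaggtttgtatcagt
Chromosome 11 transcript: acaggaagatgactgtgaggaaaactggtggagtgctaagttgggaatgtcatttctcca
The chromosome 4 transcript read -4.18, -3.59 and -3.92 and then -1.38, -1.77 and -1.05 (adjusted p = 0.030 and 0.0050). The chromosome 5 transcript read -1.37, -2.37 and -1.85 and then -0.75, 0.43 and 0.30 (adjusted p = 0.044 and 0.0056), and 6 tested probes shared its direction. The chromosome 11 transcript was above background on no passage 0 array and read 1.27, -2.97 and -3.13 after expansion, at least 9.42-fold higher with 6 arrays but at least 3.47-fold without expanded replicate 1, which was far above the others.

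The genes of the granzyme and mast cell protease cluster on chromosome 14 stood higher in expanded cells without passing both tests. Gzmd read -1.78, 0.07 and 0.93 and then 2.76, 2.51 and 2.63 (adjusted p = 0.15 and 0.015), and Gzme and Mcpt8 missed the threshold in both, so the list median of 2.01 over 7 tested genes has 0 members called in both tests.

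Genes of muscle commitment and differentiation gave 0 calls in both tests, out of 16 tested myogenic factors and 19 embryonic sarcomere genes, where 104 of all 20365 genes were called. Myog, the factor that starts differentiation, read 6.25, 6.77 and 6.57 and then 6.07, 5.96 and 4.20, with expanded culture 28 the lowest (difference -1.12 ± 0.54 SE, adjusted p = 0.55 with 6 arrays, 0.29 and 0.23). Myh3, embryonic myosin, read 7.12, 7.67 and 7.50 and then 6.53, 6.91 and 5.91 (adjusted p = 0.32 and 0.45). Its groups did not overlap, and the sarcomere lists had negative medians without expanded replicate 1, at -0.79 for embryonic genes and -0.82 for adult fibre genes. Within slide 1 the embryonic and adult medians were 0.33 and 0.27. Pax3, the embryonic relative of Pax7, read -1.11, -0.38 and -0.66 and then -0.31, 1.29 and 0.55 (adjusted p = 0.10 and 0.17). Mef2c, a cofactor of the myogenic factors, read -0.95, 0.60 and 0.82 and then -0.99, -1.39 and -1.55 (adjusted p = 0.26 and 0.16). Myf6, Acta1 and Mymk overlapped between groups, and the Myf5 probe was above background on no array.

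Proliferation genes gave 0 calls among 37 replication and 37 mitosis genes tested, where 104 of all 20365 genes were called. A count of 0 is near that share. Their medians were 0.10 and -0.21 with 6 arrays and 0.03 and -0.01 without expanded replicate 1. Mki67, the Ki-67 antigen of dividing cells, read 5.69, 5.55 and 5.20 and then 2.22, 4.87 and 5.05, so the dim array stood apart from the other 5, and Top2a, a mitotic topoisomerase, followed it at 3.43, 3.37 and 3.14 and then 1.12, 3.04 and 2.58. Ccnd1, cyclin D1, read 6.06, 5.83 and 5.65 and then 6.42, 6.51 and 6.26 (adjusted p = 0.49 and 0.46).

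The arrest genes Cdkn1a, Cdkn2a, Cdkn1c and Trp53 overlapped between groups. Tbx2 and Tbx3, described above, were the 2 of 26 tested p53 and senescence genes that fell in both tests, beside 84 of all 20365 genes. Cdkn1a, the p21 inhibitor, read 5.11, 6.38 and 5.94 and then 6.00, 6.61 and 4.93. Cdkn2a, the p16 and p19Arf locus that often rises as cultured mouse cells age, read 5.37, 4.87 and 5.09 and then 6.53, 4.70 and 4.89 (adjusted p = 0.76 and 0.81), and the dim culture 21 was the highest. Cdkn1c, the p57 inhibitor, read 1.81, 4.53 and 4.55 and then 2.58, 2.47 and 1.64, and Trp53 read 0.74, 1.51 and 0.56 and then 1.94, 2.18 and 1.19.

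The DNA methylation machinery, which the series was designed around, gave 0 calls in 22 tested genes in both tests. With 104 of all 20365 genes called, a count of 0 is near that share. Their median difference was -0.16 with 6 arrays and 0.16 without expanded replicate 1. Dnmt1, the maintenance methyltransferase, read 1.68, 1.76 and 1.28 and then 0.92, 2.08 and 1.25, a difference of -0.16 ± 0.40 (SE). Uhrf1, which guides it to replicated DNA, read 4.63, 4.18 and 4.04 and then 4.64, 4.62 and 3.94. The de novo enzymes overlapped for Dnmt3a, at -0.41, -0.55 and -0.17 against -1.77, -0.36 and 0.08. Dnmt3b stood slightly apart, at -1.54, -1.24 and -1.55 against -0.27, -1.20 and -1.10 (adjusted p = 0.77 and 0.29). Tet2, a dioxygenase that oxidises methylcytosine, read 0.25, -0.21 and 0.30 and then -4.04, -0.90 and -0.23 (adjusted p = 0.46 and 0.16), with the dim array not above background. Tet1 read -2.52, -1.84 and -2.75 and then -1.35, -1.43 and -1.79 (adjusted p = 0.43 and 0.30), and Tet3 overlapped. Dnmt3b, Tet1 and Tet2 had 3 tested probes each, and in each gene the probes disagreed in direction.

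**Figure D3:**
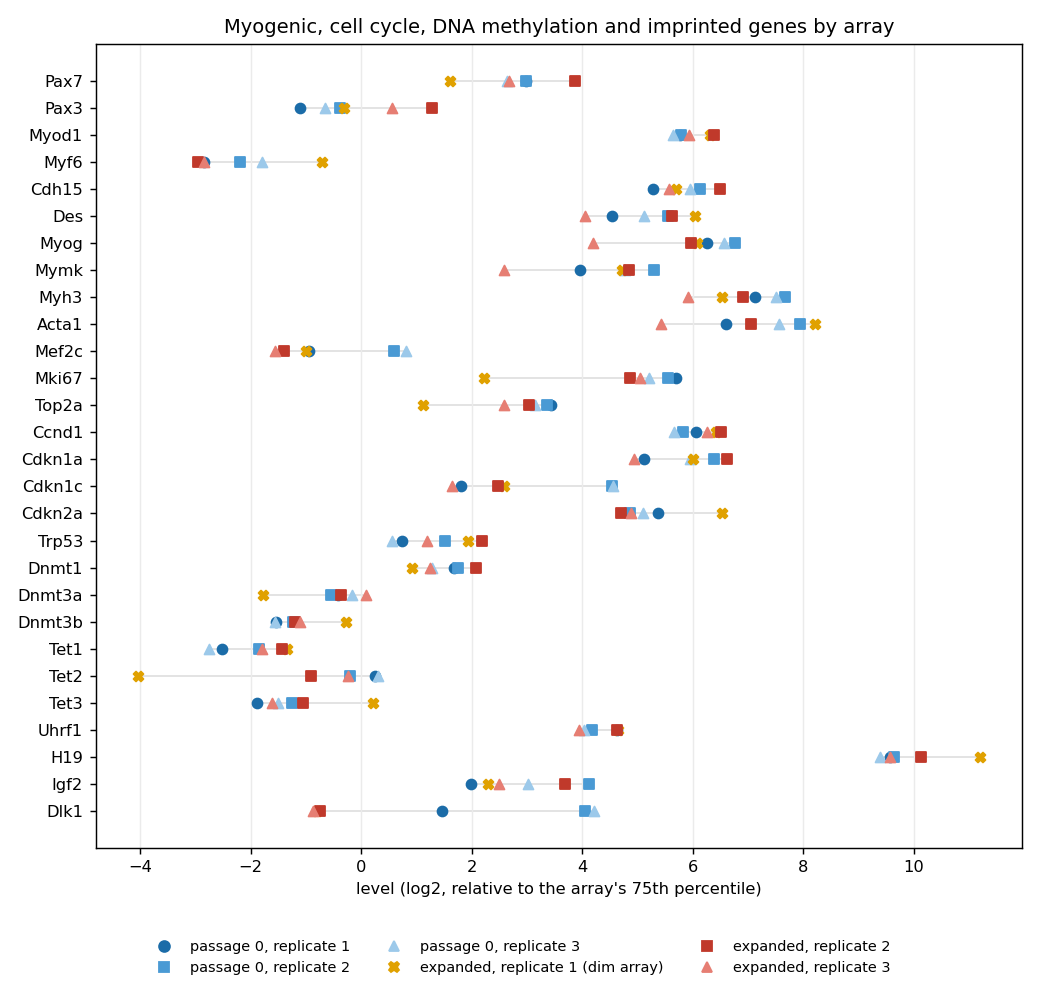
Levels of 28 myogenic, cell cycle, DNA methylation and imprinted genes on each array, on a log2 axis relative to each array's 75th percentile. Myod1, Uhrf1 and Cdkn1a overlap or nearly touch between groups, Mki67 and Tet2 are low on dim expanded replicate 1 alone, and Dlk1 has the largest difference of the genes drawn, at -4.05.

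Among 24 tested imprinted genes 0 passed both tests, near the share of 104 of all 20365 genes. The list's median of -0.97 with 6 arrays was -0.28 without expanded replicate 1. Dlk1, a paternally expressed Notch-like protein of muscle precursors, read 1.46, 4.05 and 4.21 and then -0.80, -0.74 and -0.87 (adjusted p = 0.077 and 0.0032). Mirg, a maternal noncoding RNA of the same domain on chromosome 12, read 1.97, 3.08 and 2.76 and then 0.01, 0.30 and 0.13 (adjusted p = 0.044 and 0.16), and Meg3 read 3.62, 4.68 and 4.88 and then -0.82, 1.54 and 3.07 (adjusted p = 0.16 and 0.18). All 3 were lower on each expanded array than on any passage 0 array. H19 read 9.56, 9.63 and 9.39 and then 11.20, 10.12 and 9.57, and Igf2, its neighbour, overlapped at 1.99, 4.13 and 3.01 against 2.29, 3.68 and 2.50.

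Grb10, an imprinted adaptor that restrains growth signalling, split the expanded cultures. It read 0.63, 1.02 and 0.85 at passage 0, 0.40 in expanded culture 21, and -6.35 and -4.59 in cultures 26 and 28, which were not above background. Its adjusted p was therefore 0.0095 without expanded replicate 1 and 0.13 with the 7-group spread.

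**Figure D4:**
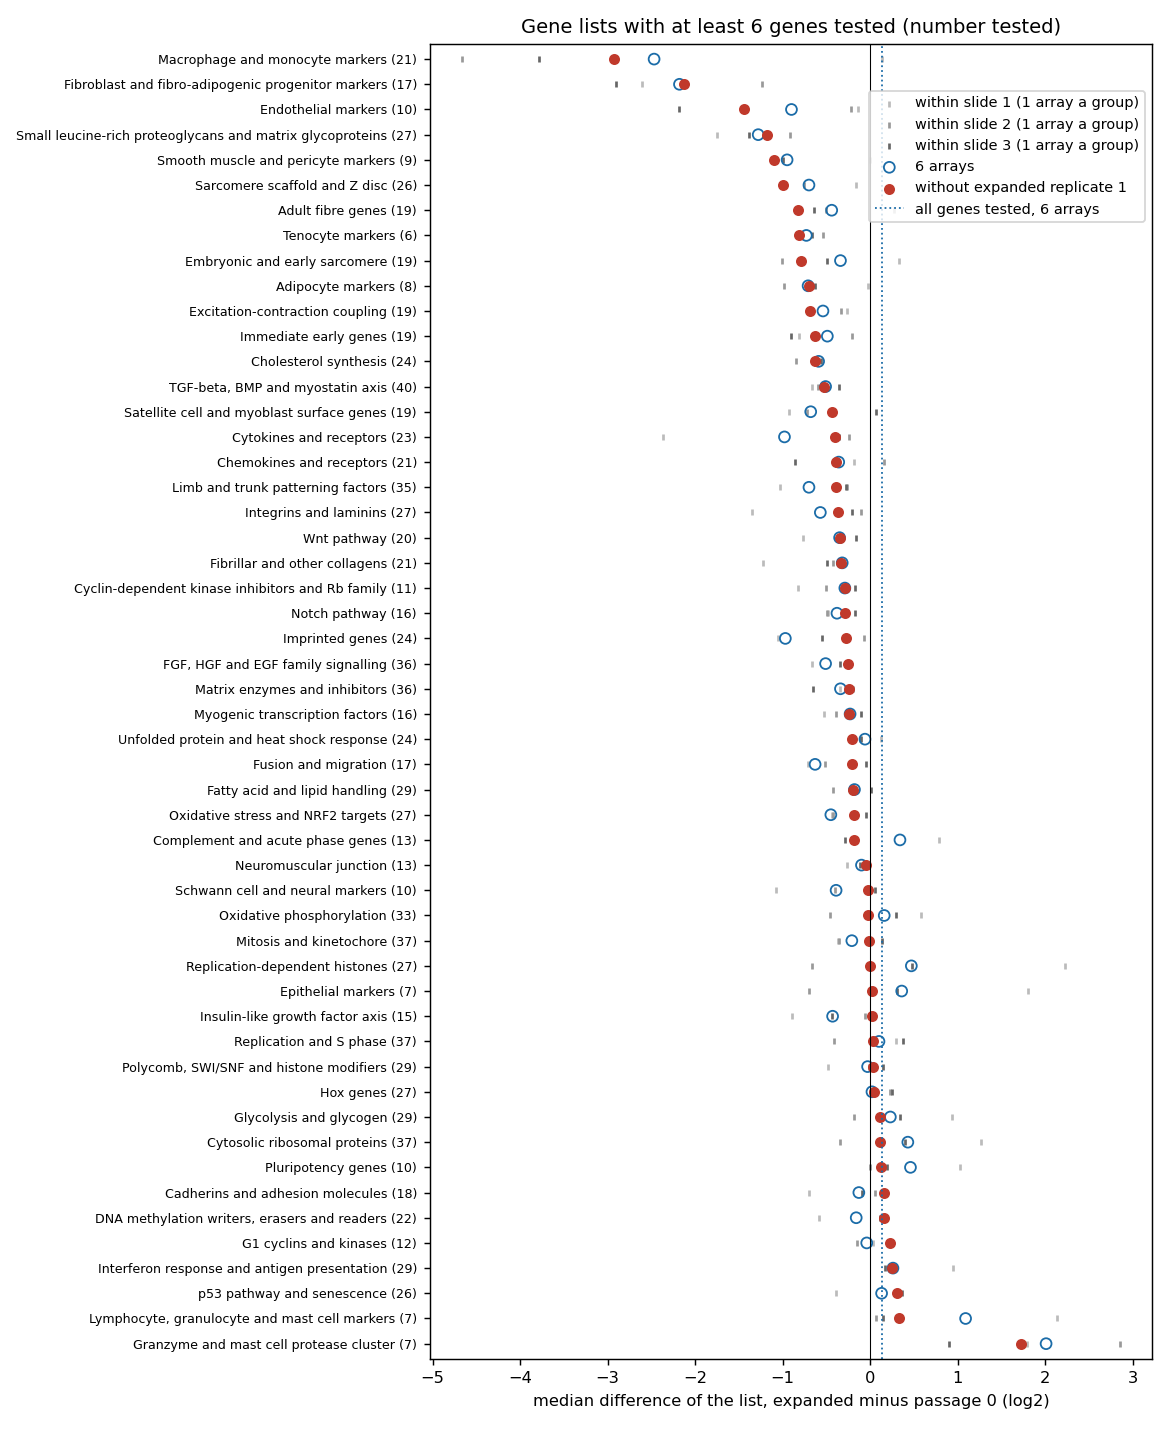
Median difference of each gene list with at least 6 tested genes, expanded minus passage 0 on a log2 axis, with 6 arrays (open circles), without expanded replicate 1 (filled circles) and within each slide (grey ticks); the dotted line is the median of all genes tested with 6 arrays. The macrophage list lies lowest at -2.47 and -2.93 and the granzyme cluster highest at 2.01 and 1.72, and besides these only the fibroblast markers have a circle beyond 1.5 in either direction, at -2.18 and -2.13.

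Genes that set 1 of the 3 expanded cultures apart were sought together with the myotubes carrying the same number. Genes were listed, with no test, where a culture stood at least 2 log2 units from both others in the same direction at all 4 stages and the higher side was above background. Culture 21 stood above the others in 14 genes and below them in 3, culture 26 above in 6 and below in 9, and culture 28 above in 1. These counts stand beside 36091 gene names on the array. The rule asks for the same direction at every stage, so recurrence in the myotubes was fixed by the choice of genes. For culture 21 the list includes Dll4, a Notch ligand gene, at 4.45 against -6.54 and -5.88 in expanded cells and at 1.92 against -2.34 and -3.66 on day 4. Coro2b, an actin regulator gene, was low in culture 21, at -2.20 against 2.86 and 0.96 and then at -1.36 against 1.26 and 1.36. Dll4 was above background in expanded culture 21 on the dim array. Culture 21 also had the dimmest array of its stage on days 2 and 4, with 75th percentiles of 338.1 and 207.6 intensity units. On day 4, 39.1% of its spots were well above background. Dll4 in culture 21 was lower on days 1 and 2, at -0.00 and -0.74, against -4.08 and -4.80 in the other cultures on day 1. The part of array brightness in the culture 21 values was not tested.

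For culture 26 the list includes Xist, Ddx3y and Eif2s3y, the homeobox genes Hoxb4, Hoxd8 and Hoxd9, and Tbx1, a T-box factor of head muscle. Hoxd9 read -1.53, -6.53 and -3.60 in expanded cultures 21, 26 and 28, and Tbx1 read 4.22, 1.67 and 4.23. At passage 0 the culture numbered 26 had Hoxd9 at -2.57 and Tbx1 at 4.02, so these low values were not seen at passage 0 under the same number. Psg18, a pregnancy-specific glycoprotein gene, was high in culture 26, at -1.72 against -4.17 and -4.20 in expanded cells. On day 1 it read 1.35 against -6.37 and -4.05. The -4.17 of expanded culture 21 is under -1.87, the lowest well-measured signal of that dim array. The size of that gap was therefore not measured.

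**Figure D5:**
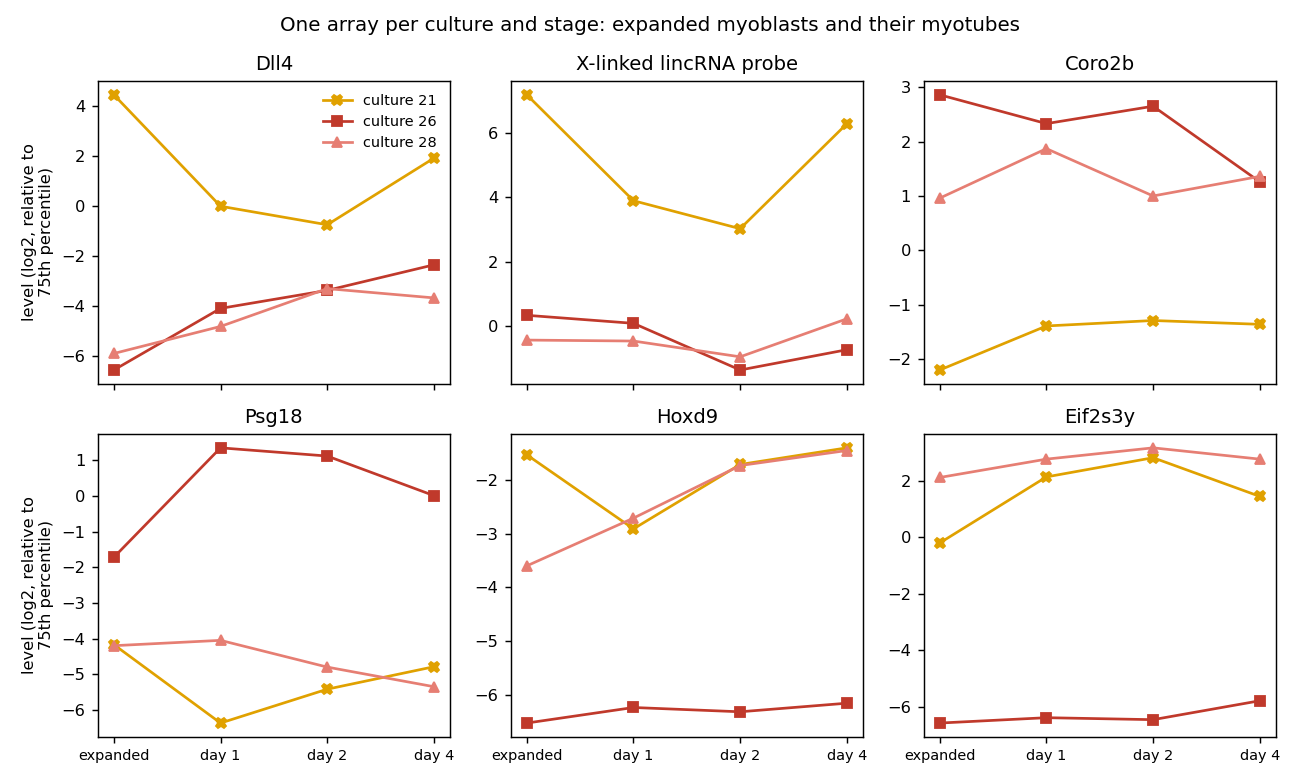
Levels of 6 genes in expanded cultures 21, 26 and 28 and in their myotubes on days 1, 2 and 4, with 1 array per point and a log2 axis relative to each array's 75th percentile. Dll4 and an X-linked noncoding probe are high and Coro2b is low in culture 21. Culture 26 is high for Psg18 and low for Hoxd9 and the Y-linked Eif2s3y. The genes were chosen for standing apart in the same direction at every stage. The Psg18 point of expanded culture 21 is under the lowest well-measured signal of its array. Culture 21 had the dimmest array of its stage in expanded cells and on days 2 and 4.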

How the data were processed

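RNA from 6 cultures was hybridised to 1-colour Agilent mouse arrays of 62976 spots. Per the file headers, Feature Extraction 10.7.3.1 made the processed intensity of each spot by background subtraction and detrending, and the mean and background signal intensities in the same files were deposited unnormalised. The authors' deposited matrix holds log2 values whose normalization is not given in the sources used here, with a median of 6.72 in each of these columns. Its scale and centring were read from the values only, and it served as an alternative.

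Here, log2 of the processed intensity minus the array's 75th percentile was taken, control and outlier-marked spots were removed, replicate spots were averaged per probe, and the brightest probe over the 6 arrays stood for a gene. A gene was tested if well above background on every array of at least 1 group. Names came from the files and the RefSeq table, which knew 21995 of 36091 gene names; probe positions are of build mm9. Differences were tested with limma 3.58.1 (R 4.3.3), with Benjamini-Hochberg adjustment over all genes tested, and the method was tested on simulated data. Bounds use the lowest well-measured signal of each array, which was -1.87 on expanded replicate 1 and -4.40 to -4.98 on the others. All arrays shared 1 scan day and lay on 3 slides, each with 1 array of each group, so slides are not confounded with the groups. The number of arrays limits the precision.

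The members and gene lists were chosen with earlier results of these data known. The rule for named genes took called genes above background on all arrays without overlap (12 per direction by difference), called genes measured in 1 group only (6 per direction by bound), 3 called genes per direction and list, and a fixed set. It asked for a call with all 6 arrays; as that gave 0 genes, the call in both other tests was put in its place after the counts were seen. Same-numbered replicates were not paired by the labels: the correlation of their deviations from the group means was -0.09, 0.40 and 0.02, and that of the culture numbered 26 was -0.13. Alternatives are listed in the closing section. Some results of the named-gene rule are not reported here.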

Additional observations from a re-analysis of the deposited data

How the results depend on the processing

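The counts with all 6 arrays were 0 higher and 0 lower. They were also 0 and 0 with the authors' values, without a filter, with genes above background in both groups, with the mean of a gene's probes, with slide as a block, and with an intensity trend. The replicate block gave 0 and 0 calls too, with a lowest adjusted p of 0.073, and the labels do not pair the numbers. The 7-group spread gave 137 and 210, array weights 69 and 209, normexp background 1 and 8, and quantile normalization 0 and 15. Leaving out 1 replicate at a time gave 0 to 70 higher and 0 to 182 lower genes, with every call coming from the fit without expanded replicate 1, whose array weight was 0.1492. Further settings without that replicate were added after seeing the data, and gave 29 and 176 calls over the genes of the 6-array fit, and 12 and 109 with quantile normalization. Of the 104 genes called in both tests, 98 were called with array weights, 8 with quantile normalization, 8 with normexp, and 102 kept their sign with normexp. With genes above background in both groups, 39 of the 104 could be tested and 39 kept their sign, and in each other setting run 104 did. Among the named genes' alternative values, 1217 kept direction and side of the threshold, 203 passed it newly and 75 changed sign without any call; 0 called values reversed. Quantile normalization moved the median of all genes from 0.14 to -0.05. The dim array limits what could be measured: signals under -1.87 there have no reliable level.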
